A study of Mus musculus with 4 samples.

Results

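The late sterol synthesis enzymes turn squalene into cholesterol in the endoplasmic reticulum. The 9 genes described here were chosen by that role, as the mouse genes *Sqle*, *Lss*, *Cyp51*, *Msmo1*, *Nsdhl*, *Hsd17b7*, *Ebp*, *Sc5d* and *Dhcr7*, and all 9 were found among the 39179 Ensembl genes of the count data. RNA was sequenced from 2 libraries of parental B16F1 cells, a mouse melanoma line that served as control, and from 2 libraries of tumor repopulating cells (TRCs). TRCs are the B16F1 cells that grew from single cells into spheroids inside soft salmon fibrin gels of 90 Pa stiffness and were isolated on day 5. Both groups come from the same cell line, the labels name no gene edit or drug, and the libraries of each group carry the replicate numbers 1 and 3. TRCs differ from the control cells at once in gel, culture geometry and survival in the gel, so the parts of these cannot be told apart.

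Cholesterol synthesis begins with the mevalonate pathway, which makes squalene from acetyl-CoA, and the late enzymes then close, demethylate and desaturate the sterol ring. Squalene epoxidase (*Sqle*) is known as a rate-controlling enzyme of the late part, and *Sqle*, *Cyp51*, *Msmo1* and *Sc5d* encode enzymes that use molecular oxygen. Transcription of most genes of the pathway is driven by SREBP2, the product of *Srebf2*, which is held in the endoplasmic reticulum by INSIG proteins while sterols are plentiful.

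The 4 libraries held between 35948295 and 43511554 gene counts, and 11483 genes that reached 1 CPM, the count scaled to library size, in at least 2 libraries were tested. At these depths 3 counts, taken as the floor of detection for counting error alone, correspond to between 0.0689 and 0.0835 CPM, far below the level of any member. All 9 members passed the filter, with between 765 and 15012 counts in a library. The melanocyte markers checked were high in all libraries, with a summed level from 15712 to 26669 CPM, and 1 of 7 (*Dct*) was called higher in TRCs. Of 18 markers of leukocytes, fibroblasts and endothelial cells, 7 had no count in any library, *Ptprc*, *Cd3e*, *Cdh5* and *Kdr* among them. The summed level was 1.66 to 4.93 CPM for the leukocyte list, 3.10 to 11.4 CPM for the fibroblast list and 0.567 to 2.50 CPM for the endothelial list. Only 1 leukocyte, 3 fibroblast and 1 endothelial marker passed the filter and were tested. Of those tested only *Col1a2*, a fibroblast collagen, was called. It was lower in TRCs (6.70 and 7.79 CPM in the controls, at most 1.52 CPM in the TRCs). The fibroblast markers *Dcn*, *Lum* and *Thy1* had at most 4 counts in any library. Alignments that were not unique were left out of the gene counts and made up 15.2% and 17.1% of alignments in the controls and 18.3% and 25.2% in the TRCs. In bulk RNA a lower transcript level in each cell and fewer expressing cells cannot be told apart. Nothing in the labels says that libraries came from separate cultures, so the p-values measure the spread between these libraries, which may be technical.

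The promoters of 3 members that rose, and that of *Ebp*, which did not, are shown first. Gene counts do not tell which start site the transcripts used. RefSeq windows of 300 bases, running 5′ to 3′ on the strand of the gene, were matched by symbol for 8 of the 9 members on GRCm38.p6, and *Sqle* was not matched. Capitals mark matches on either strand to TCACNNCA, a loose form of the sterol regulatory element to which SREBP binds, and to CCAAT, the box of the factor NF-Y, which reads ATTGG on the opposite strand. The windows are chr10:76531355-76531654 on the plus strand for *Lss*, chr8:64733529-64733828 on the minus strand for *Msmo1*, chrX:72918271-72918570 on the plus strand for *Nsdhl* and chrX:8193463-8193762 on the minus strand for *Ebp*.
Lss: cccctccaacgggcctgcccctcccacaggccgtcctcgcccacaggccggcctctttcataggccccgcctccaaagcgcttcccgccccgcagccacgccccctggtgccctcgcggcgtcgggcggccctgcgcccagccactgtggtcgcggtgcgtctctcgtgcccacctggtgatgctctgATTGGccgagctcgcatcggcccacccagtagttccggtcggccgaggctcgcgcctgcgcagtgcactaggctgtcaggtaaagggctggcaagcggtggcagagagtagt
Msmo1: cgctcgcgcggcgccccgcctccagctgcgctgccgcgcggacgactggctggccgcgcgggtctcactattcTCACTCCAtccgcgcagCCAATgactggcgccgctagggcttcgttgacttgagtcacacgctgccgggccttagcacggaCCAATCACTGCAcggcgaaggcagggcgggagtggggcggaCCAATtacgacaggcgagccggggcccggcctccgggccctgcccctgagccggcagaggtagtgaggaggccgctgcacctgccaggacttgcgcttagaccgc
Nsdhl: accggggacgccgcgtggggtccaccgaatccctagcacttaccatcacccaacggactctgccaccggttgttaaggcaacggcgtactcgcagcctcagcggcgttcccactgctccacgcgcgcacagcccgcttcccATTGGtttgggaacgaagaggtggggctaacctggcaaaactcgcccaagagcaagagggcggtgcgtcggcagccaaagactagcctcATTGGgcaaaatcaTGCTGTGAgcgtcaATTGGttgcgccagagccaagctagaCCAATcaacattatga
Ebp: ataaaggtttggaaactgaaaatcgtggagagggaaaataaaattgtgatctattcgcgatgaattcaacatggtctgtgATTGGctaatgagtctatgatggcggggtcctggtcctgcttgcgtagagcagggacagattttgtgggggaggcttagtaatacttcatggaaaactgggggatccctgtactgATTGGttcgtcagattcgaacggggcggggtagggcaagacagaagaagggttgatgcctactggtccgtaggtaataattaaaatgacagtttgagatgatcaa
Here *Msmo1* held 3 CCAAT boxes and 2 matches to TCACNNCA, the second of which shares a base with a CCAAT box. *Lss* and *Ebp* held CCAAT but no match to TCACNNCA. RefSeq held 3 windows for *Dhcr7*, a member that rose, and only the 1 nearest to its principal start in GENCODE was used. That window, which is not printed, held neither CCAAT nor TCACNNCA. The other windows of *Dhcr7* are not described here. Among the 8 windows, 5 held TCACNNCA, which 13.8% of all 32851 RefSeq windows of this length hold. The 5 were those of *Cyp51*, *Msmo1*, *Nsdhl*, *Hsd17b7* and *Sc5d*, and of these members only *Msmo1* and *Nsdhl* were called higher in TRCs. Of the 8 windows, 7 held CCAAT (37.4% of all windows) and 8 held the GC box GGGCGG (35.7%). The letters of the hypoxia-response core, ACGTG, were in 2 of the 8, those of *Hsd17b7* and *Sc5d*, against 19.6% of all windows. In both they lie within the palindrome CACGTG, which matches on both strands, and the letters do not tell which factor binds there. TCACNCCAC, a strict form of the sterol element that contains the loose form, was in 0 of the 8 windows and in 1.24% of all windows. A match is only a run of letters, and these windows carry no binding data. The start site of the *Msmo1* window lies 214 bases downstream of the nearest start of its principal mRNA in GENCODE. All matches marked in that window therefore lie within the gene as GENCODE annotates it, not upstream of it.

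Transcripts of 5 late sterol enzymes were more abundant in TRCs, and the other 4 did not pass the test. Of the 9 members, 5 rose in TRCs at a false discovery rate (FDR) under 0.05 in edgeR's exact test, where 8.81% of all genes tested were called higher, and 0 fell, where 7.05% of all genes were called lower. The 5 were *Sqle*, *Lss*, *Msmo1*, *Nsdhl* and *Dhcr7*. The median log2 change, the log2 fold change of TRC over control, was 0.95 over the members and 0.0034 over all genes tested. In 8 of 9 members, and in 30.2% of all genes, both TRC libraries exceeded the higher control. Several values were close to the threshold, and edgeR's quasi-likelihood test called 4 of the 9 (4.94% of all genes), with *Lss* at FDR = 0.0541. The median of the members also moved with single libraries, to 0.67 without control replicate 1 and 1.29 without control replicate 3. It was 0.91 without TRC replicate 3.

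**Figure D1:**
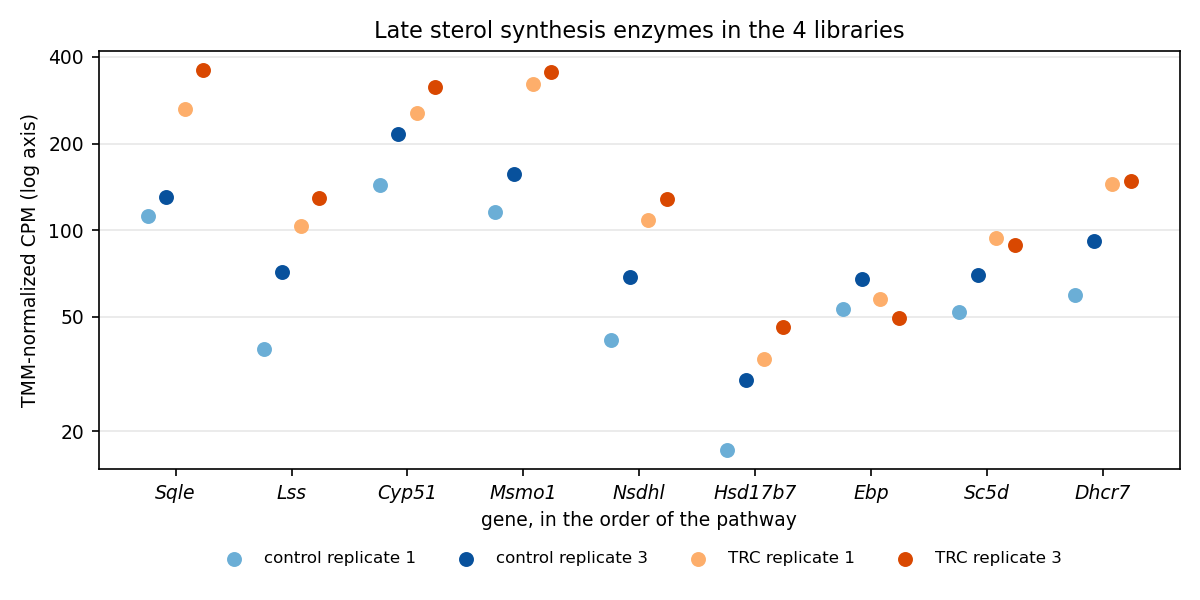
TMM-normalized CPM (log axis) of each late sterol enzyme in each of the 4 libraries, one point per library, with genes in the order of the pathway. Control replicate 1 is the lowest point for 8 of the genes, and for *Ebp* the groups overlap.

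The first steps turn squalene into lanosterol. *Sqle* (ENSMUSG00000022351, chromosome 15 from 59315077 to 59331192, plus strand), whose product adds oxygen to squalene, was at 112 and 131 CPM in control replicates 1 and 3 and at 264 and 361 CPM in TRC replicates 1 and 3. The groups stood well apart, each TRC library being more than 2-fold above each control library. The mean went from 121 ± 13.2 in the controls to 313 ± 68.3 CPM in the TRCs (SD, n = 2 each), a log2 change of 1.36 (SE 0.23, FDR = 2.56e-06). *Lss* (ENSMUSG00000033105, chromosome 10 from 76531588 to 76557138, plus strand), which encodes lanosterol synthase, the cyclase that closes the ring system, was at 38.5 and 71.4 CPM in the controls and at 103 and 130 CPM in the TRCs. The groups did not overlap, but the controls differed from each other, on the log2 scale, by more than control replicate 3 differed from either TRC library. The log2 change of *Lss* was 1.09 (SE 0.31, FDR = 0.00326). Its FDR was 0.0684 without control replicate 1 and 0.106 without TRC replicate 3. The antisense gene that overlaps 381 exonic bases of *Lss* had at most 1 count in a library.

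The next steps remove the methyl groups of lanosterol. *Cyp51* (ENSMUSG00000001467, chromosome 5 from 4081145 to 4104746, minus strand), which encodes the cytochrome P450 of the first demethylation, was at 143 and 215 CPM in the controls and at 256 and 313 CPM in the TRCs. The libraries did not overlap, but the gap between the groups was smaller than the gap between the controls. The log2 change of 0.67 (SE 0.26, FDR = 0.0608) did not pass the threshold. *Cyp51* shares 166 exonic bases with *Akap9* on the opposite strand, and the strand setting of the counting is not given in the sources used here. *Msmo1* (ENSMUSG00000031604, chromosome 8 from 64718139 to 64733792, minus strand), whose oxidase begins the removal of the next methyl groups, was at 115 and 157 CPM in the controls and at 323 and 355 CPM in the TRCs. As with *Sqle*, the lowest TRC library held more than 2-fold the level of the highest control. The log2 change was 1.32 (SE 0.23, FDR = 5.25e-06).

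*Nsdhl* and *Hsd17b7* encode the dehydrogenase and the ketoreductase that act with the *Msmo1* product in the same demethylation. *Nsdhl* (ENSMUSG00000031349, chromosome X from 72918557 to 72958514, plus strand) was at 41.4 and 68.7 CPM in the controls and at 108 and 128 CPM in the TRCs. It rose with a log2 change of 1.10 (SE 0.28, FDR = 0.000981), and without TRC replicate 3 its FDR was 0.0508. *Hsd17b7* (ENSMUSG00000026675, chromosome 1 from 169949535 to 169969241, minus strand), the member with the fewest counts, was at 17.2 and 30.0 CPM in the controls and at 35.6 and 46.1 CPM in the TRCs. For *Hsd17b7* the TRC replicate 1 value lay close to that of control replicate 3. The log2 change was 0.79 (SE 0.32, FDR = 0.0564), on the other side of the threshold from *Nsdhl*.

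The last steps shift and reduce the double bonds of the ring. *Ebp* (ENSMUSG00000031168, chromosome X from 8185329 to 8193512, minus strand), which encodes the sterol isomerase, was at 53.4 and 67.6 CPM in the controls and at 57.8 and 49.7 CPM in the TRCs. Its libraries overlapped, and the log2 change was −0.17 (SE 0.24, FDR = 0.692). The 95% interval of its fold change, from DESeq2 and unadjusted for the number of genes, ran from 0.646 to 1.22, so a rise of the size of those of *Sqle* or *Msmo1* lay outside it. *Sc5d* (ENSMUSG00000032018, chromosome 9 from 42251595 to 42264256, minus strand), which encodes the desaturase, was at 51.8 and 69.9 CPM in the controls and at 94.0 and 88.7 CPM in the TRCs. The TRC libraries of *Sc5d* were close to each other and above both controls, with a log2 change of 0.59 (SE 0.24, FDR = 0.0701) that did not pass. An annotated pseudogene, *Gm31520*, matches 307 bases of *Sc5d* transcript at 91.9% identity and is not among the genes counted. Reads that align to both are not unique, so the *Sc5d* counts are uncertain to that extent. *Dhcr7* (ENSMUSG00000058454, chromosome 7 from 143823145 to 143848410, plus strand), the reductase that makes cholesterol, was at 59.7 and 91.7 CPM in the controls and at 145 and 148 CPM in the TRCs. The TRC libraries of *Dhcr7* differed by little, and the log2 change was 0.95 (SE 0.26, FDR = 0.00316). Its FDR was 0.0756 without control replicate 1 and 0.0511 without TRC replicate 3.

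The oxygen-using members overlapped with the others in the size of the difference. Of the 4 oxygen-using enzymes, 2 rose (*Sqle* and *Msmo1*), with log2 changes from 0.59 to 1.36 and a median of 0.99. Of the other 5 enzymes, 3 rose (*Lss*, *Nsdhl* and *Dhcr7*), with log2 changes from −0.17 to 1.10 and a median of 0.95. Over all genes tested, 8.81% rose. These are descriptions of the members, and no test of the difference was made.

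The size of the rise depended on which control library the TRCs were set against. All 9 members were lower in control replicate 1 than in control replicate 3, where 50.4% of all genes tested were lower in replicate 1. The differences between the controls, as log2 of CPM + 0.5, ran from −0.88 for *Lss* to −0.22 for *Sqle*, with a median of −0.58. A difference at or below that median was found for 509 (4.43%) of the genes tested. Between the TRC libraries, 7 of 9 members were lower in replicate 1, with a median difference of −0.24, where 50.1% of all genes were lower in TRC replicate 1. The members with the largest gap between controls were *Lss*, *Hsd17b7* and *Nsdhl*, and *Sqle* had the smallest.

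Against control replicate 1, both TRC libraries were at least 2-fold higher for 6 of 9 members (3.34% of all genes), and against control replicate 3 for 2 of 9 (6.76%). The 2 were *Sqle* and *Msmo1*, whose smallest ratio of a TRC to a control library was 2.02 and 2.05. For *Lss* the ratios ran from 1.45, TRC replicate 1 over control replicate 3, to 3.34, TRC replicate 3 over control replicate 1. *Cyp51* and *Hsd17b7* had the smallest ratios among the members whose libraries did not overlap, 1.19 and 1.18, both for TRC replicate 1 over control replicate 3. In edgeR's exact test with control replicate 1 as the only control, 8 of 9 members were called higher (4.35% of all genes), and with control replicate 3 as the only control 3 of 9 were (9.39%). In these fits the lone control is assumed to vary like the TRC libraries. *Sqle*, *Msmo1* and *Nsdhl* were called against each control, with log2 changes of 1.48, 1.56 and 1.51 against replicate 1 and 1.26, 1.11 and 0.79 against replicate 3. *Ebp* had a log2 change of 0.0097 against replicate 1 and −0.33 against replicate 3, and was called in neither fit.

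**Figure D2:**
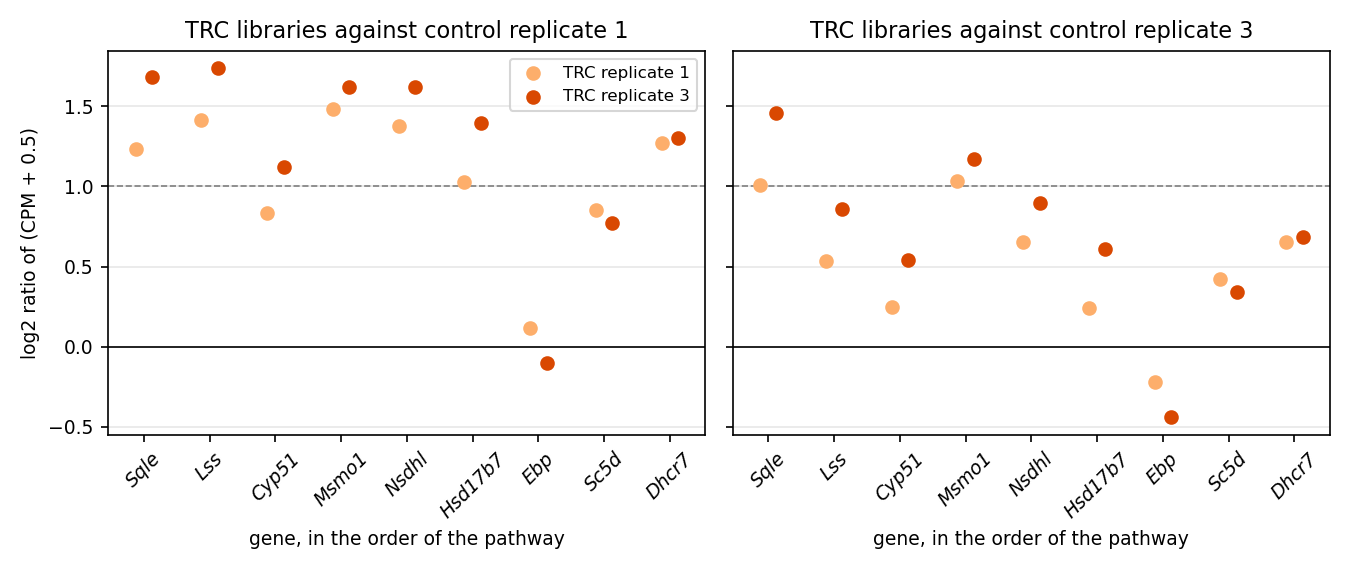
Log2 ratio of CPM + 0.5 of each TRC library to control replicate 1 (left) and to control replicate 3 (right), with genes in the order of the pathway, a solid line at 0 and a dashed line at a 2-fold ratio. All ratios are smaller on the right, where for *Sqle* and *Msmo1* both points still lie on or above the dashed line.

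Levels of different genes were compared as CPM per kilobase of the principal mRNA. In the controls *Msmo1* was the most abundant, at 66.7 ± 14.6 (SD, n = 2), followed by *Cyp51* at 45.6 ± 12.9, *Sqle* at 44.05 ± 4.80, *Ebp* at 34.7 ± 5.77 and *Dhcr7* at 26.9 ± 8.05. Then came *Nsdhl* at 25.4 ± 8.89, *Sc5d* at 12.7 ± 2.69, *Lss* at 11.8 ± 4.98 and *Hsd17b7* at 5.12 ± 1.97. Neighbouring genes changed places between the control libraries for *Cyp51* and *Sqle* and for *Sc5d* and *Lss*, and the other members kept their rank in both. The values of *Dhcr7* nevertheless overlapped with those of *Ebp* and *Nsdhl* when the libraries were pooled.

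In the TRCs *Msmo1* stood at 166 ± 11.3 (SD, n = 2), *Sqle* at 113 ± 24.8, *Cyp51* at 72.4 ± 10.3, *Nsdhl* at 54.6 ± 6.46 and *Dhcr7* at 52.0 ± 0.777 CPM per kilobase. They were followed by *Ebp* at 30.8 ± 3.31, *Lss* at 24.97 ± 3.99, *Sc5d* at 19.1 ± 0.793 and *Hsd17b7* at 8.87 ± 1.61. Of neighbouring genes only *Nsdhl* and *Dhcr7* changed places between the TRC libraries. *Ebp* made up 13.5% and 12.2% of the summed per-kilobase level of the 9 members in the controls and 6.59% and 4.9% in the TRCs, while *Msmo1* went from 24.8% and 24.2% to 31.4% and 29.9%. The summed level was 227 and 319 CPM per kilobase in the controls and 503 and 581 in the TRCs. For such single values the smallest two-sided p of an exact permutation test of 2 against 2 libraries is 0.333. The order depends on the length used: with the length of all annotated exons, *Cyp51* ranked 1 in each library and *Msmo1* between 2 and 4.

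**Figure D3:**
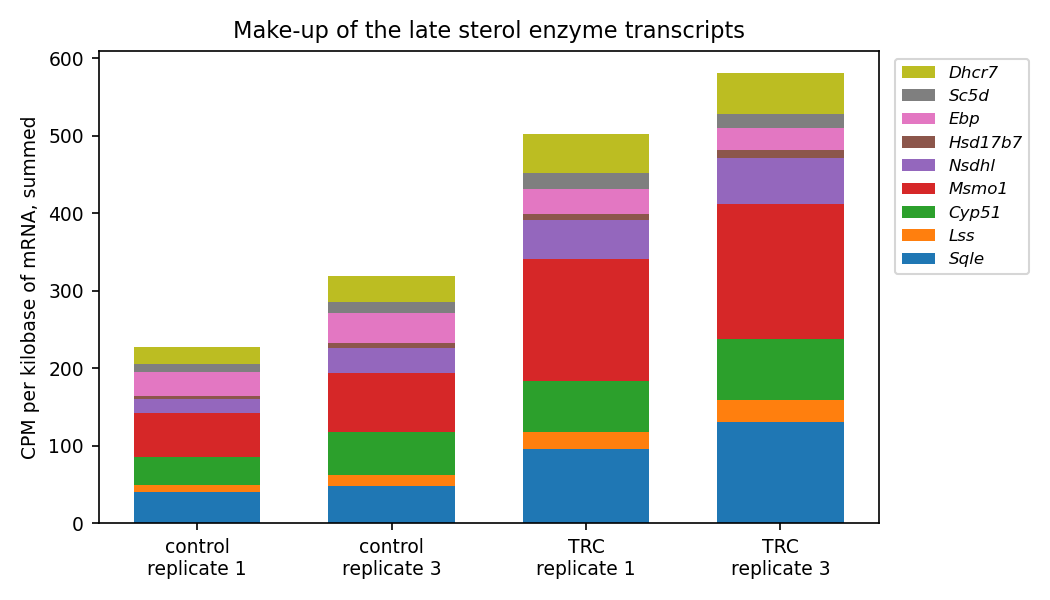
Stacked bars of the CPM per kilobase of principal mRNA of the 9 late sterol enzymes in each library, starting at 0. The summed height is 227 and 319 in the controls and 503 and 581 in the TRCs, and the *Ebp* segment takes 13.5% and 12.2% of the control bars and 6.59% and 4.9% of the TRC bars.

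Other genes that act in the late steps or on their intermediates included some that rose and some that did not. *Tm7sf2*, a sterol reductase of the step after *Cyp51*, was at 5.78 and 3.68 CPM in the controls and at 20.3 and 16.1 CPM in the TRCs. It rose with a log2 change of 1.94 (SE 0.34, FDR = 3.27e-05), above that of any member. *Lbr*, a lamin receptor of the nuclear envelope with the same reductase activity, was at 104 and 132 CPM in the controls and at 101 and 90.7 CPM in the TRCs, a log2 change of −0.30 (SE 0.22, FDR = 0.414). *Erg28*, a scaffold of the demethylation enzymes, was at 35.3 and 51.4 CPM in the controls and at 53.8 and 69.6 CPM in the TRCs, a log2 change of 0.51 (SE 0.27, FDR = 0.178). Of these 3 genes 1 rose (8.81% of all genes tested) and 0 fell (7.05%), with a median of 0.51.

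Of 4 electron donors of the late enzymes, 1 rose (8.81% of all genes tested) and 0 fell (7.05%), with a median of 0.39. *Por*, the reductase that feeds CYP51 and squalene epoxidase, was at 72.3 and 87.5 CPM in the controls and at 97.4 and 103 CPM in the TRCs, a log2 change of 0.32 (SE 0.21, FDR = 0.356). *Cyb5a*, a cytochrome b5, which passes electrons to the oxidase and the desaturase, rose from 452 and 562 CPM to 811 and 867 CPM, with a log2 change of 0.73 (SE 0.21, FDR = 0.0181). *Cyb5a* was not called in the quasi-likelihood test (FDR = 0.068) or without control replicate 1 or either TRC library.

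Upstream of squalene, 4 of 9 early mevalonate enzymes rose (8.81% of all genes tested) and 0 fell (7.05%), with a median log2 change of 0.71. *Hmgcs1*, which makes HMG-CoA, was at 110 and 182 CPM in the controls and at 476 and 412 CPM in the TRCs, a log2 change of 1.60 (SE 0.27, FDR = 6.50e-07). *Fdft1*, the squalene synthase that supplies the substrate of *Sqle*, was at 43.8 and 75.6 CPM in the controls and at 197 and 169 CPM in the TRCs, a log2 change of 1.62 (SE 0.29, FDR = 7.52e-07). *Mvd*, the mevalonate diphosphate decarboxylase, was at 16.1 and 27.5 CPM in the controls and at 52.7 and 55.5 CPM in the TRCs, a log2 change of 1.31 (SE 0.30, FDR = 0.00016). Control replicate 1 was the lower control for each of these 3, as for the late enzymes, and for 8 of the 9 early enzymes, with a median difference of −0.72.

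The genes that control SREBP differed among themselves. *Srebf2* was at 154 and 226 CPM in the controls and at 312 and 423 CPM in the TRCs and rose with a log2 change of 0.95 (SE 0.26, FDR = 0.00531). *Srebf1*, which encodes SREBP1, known for lipid synthesis, was at 95.8 and 139 CPM in the controls and at 108 and 141 CPM in the TRCs, a log2 change of 0.087 (SE 0.26, FDR = 0.867). Its groups overlapped. *Insig1*, itself a target of SREBP, was at 102 and 226 CPM in the controls and at 400 and 452 CPM in the TRCs, a log2 change of 1.38 (SE 0.34, FDR = 0.000707). *Insig2* was at 80.5 and 49.99 CPM in the controls and at 127 and 167 CPM in the TRCs, a log2 change of 1.17 (SE 0.28, FDR = 0.000484). The control order of *Insig2* was the opposite of that of the late enzymes, with replicate 1 above replicate 3. In total 3 of 7 genes of this list rose (8.81% of all genes tested) and 0 fell (7.05%), with a median of 0.38. In the quasi-likelihood test *Srebf2* was not called (FDR = 0.0518), and without TRC replicate 3 the number called was 1.

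Among 12 genes of cholesterol uptake, transport and storage, 10 were tested. Of these 4 rose (8.81% of all genes tested) and 0 fell (7.05%), with a median log2 change of 0.66. *Stard4*, a cytosolic sterol carrier, went from 34.0 and 67.7 CPM to 117 and 144 CPM (log2 change 1.36, SE 0.32, FDR = 0.000275). *Scarb1*, a lipoprotein receptor, went from 112 and 155 CPM to 240 and 354 CPM (log2 change 1.16, SE 0.27, FDR = 0.000466). *Nr1h2*, a sterol-responsive nuclear receptor, went from 49.8 and 42.3 CPM to 74.2 and 75.7 CPM (log2 change 0.70, SE 0.21, FDR = 0.0165). In all 3 the groups did not overlap, and *Nr1h2* was the only one of them with control replicate 1 above control replicate 3. Without TRC replicate 3 the number of genes called was 1.

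**Figure D4:**
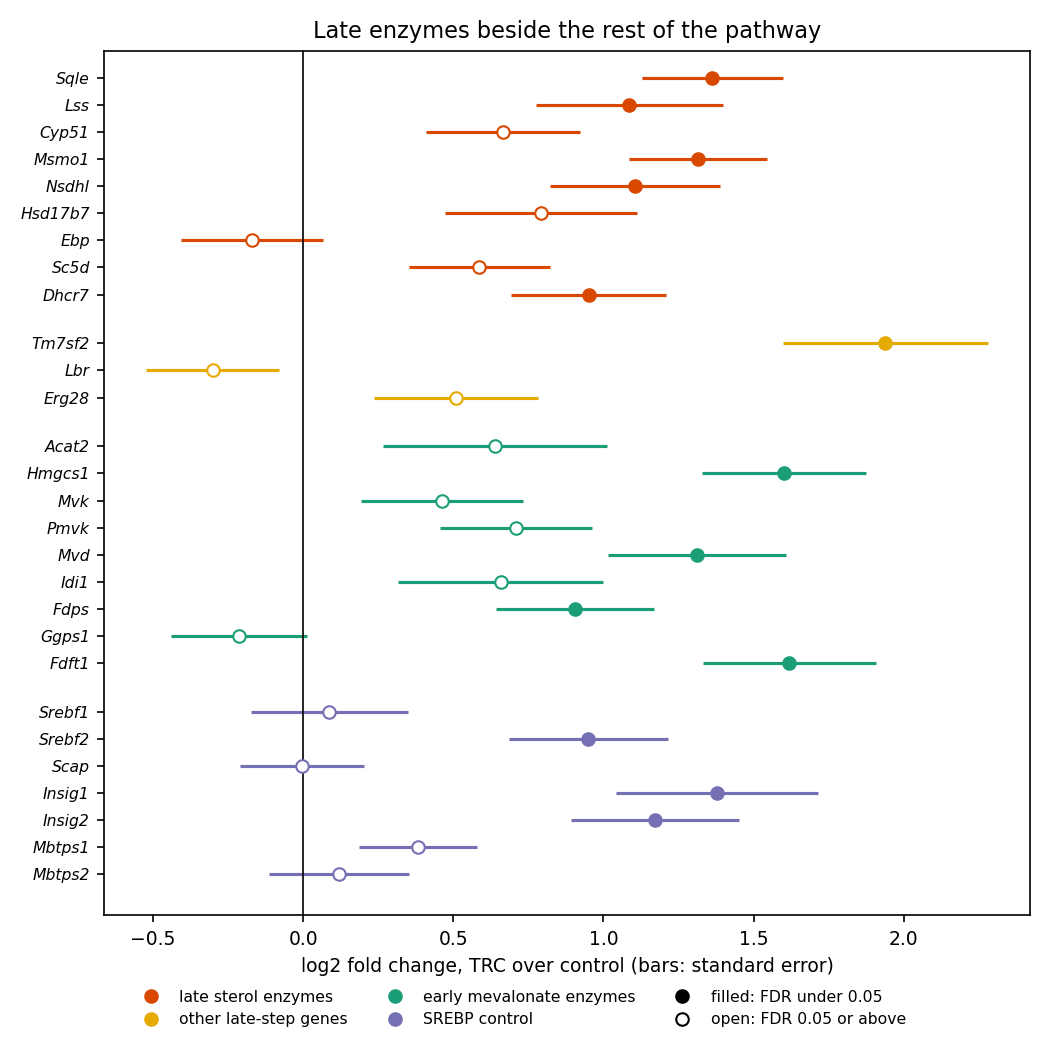
Log2 fold change of TRC over control (points) with DESeq2 standard errors (bars) for the late sterol enzymes and the other late-step genes, early mevalonate enzymes and SREBP control genes, filled where FDR was under 0.05 in edgeR's exact test. Most points lie right of 0, and in the 3 lists of synthesis genes *Ebp* (−0.17), *Lbr* (−0.30) and *Ggps1* (−0.21) lie left of it with open points.

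Hypoxia-responsive genes moved with the same groups. All 10 of the list were called higher in TRCs in the exact test (8.81% of all genes), with a median log2 change of 2.36. The quasi-likelihood test called 8 of the 10 (4.94% of all genes), without *Vegfa* (FDR = 0.0747) and *Adm* (FDR = 0.132). *Bnip3*, *Ankrd37* and *Pdk1* had log2 changes of 5.13, 5.58 and 4.39. The summed level of the list was 357 and 291 CPM in the controls and 1401 and 3007 CPM in the TRCs, against 633 and 903 and then 1387 and 1620 CPM for the late sterol enzymes. Between the controls, 4 of the 10 hypoxia genes were lower in replicate 1, against 9 of the 9 sterol enzymes, and the higher hypoxia sum of control replicate 1 came from *Vegfa* (101 and 22.9 CPM). Between the TRC libraries, 10 of the 10 hypoxia genes and 7 of the 9 sterol enzymes were lower in replicate 1. The part of the hypoxia list in the levels of the sterol enzymes was not tested.

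The genes outside the lists whose profile over the 4 libraries was nearest to the mean profile of the members were *Rnf145*, *Bcorl1*, *Pnrc1*, *Neurl1b* and *Gm12286*, by Euclidean distance between centred log2 CPM + 0.5 values. Their distances were from 0.112 to 0.144. The nearest, *Rnf145*, which encodes a membrane ubiquitin ligase, was at 65.7 and 89.0 CPM in the controls and at 140 and 153 CPM in the TRCs, a log2 change of 0.92 (SE 0.23, FDR = 0.00222). *Bcorl1* and *Pnrc1* also rose, with log2 changes of 0.86 and 0.87 (*Pnrc1* at FDR = 0.0651 in the quasi-likelihood test), and *Neurl1b* (FDR = 0.101) and *Gm12286* (FDR = 0.0553) did not pass at levels under 2.3 CPM. Of the members, *Dhcr7* was nearest to the mean profile, at 0.15, and *Ebp* farthest, at 1.08, with 5809 genes outside the lists nearer than *Ebp*. With 4 libraries many genes share such a profile, and the distance is a description only. These genes were chosen for that profile in the same libraries, so their rise is not a separate result.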

How the data were processed

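RNA was measured in 2 libraries of parental B16F1 cells and 2 of TRCs. The kit kept the strand. The authors trimmed the single-end reads (Trimmomatic 0.35), aligned to GRCm38 (TopHat2 2.1.0, with Bowtie2 2.2.6 and SAMtools 1.3) and deposited raw counts per Ensembl gene from htseq-count. The mode and strand setting are not given in the sources used here.

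The closing rows of each file, which name no gene, were dropped (2.95% to 4.25% of alignments had no feature), and genes under 1 CPM in at least 3 libraries were left out. Following the study's methods, counts were scaled by TMM (factors 0.957 to 1.04) and tested with tagwise dispersion in the exact test of edgeR 4.0.16 (R 4.3.3, prior count 0.125), with Benjamini-Hochberg FDR over all 11483 genes and a threshold of 0.05. CPM values are counts over the TMM-scaled library size. Standard errors and 95% intervals came from DESeq2 1.42.0. Symbols, positions and lengths came from GENCODE M21, and promoters from RefSeq. Near-identical transcripts (at least 90% over at least 300 bases) were sought with BLAST+ 2.17.0. The tests were run on simulated counts, with changes larger than that of any member and the same dispersion for all genes. That run does not tell how the tests perform for smaller changes. Plots were drawn with matplotlib 3.10.9.

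The members and gene lists were chosen with earlier results of these data known. Named genes are the members, the other late-step genes, *Hmgcs1*, *Srebf1*, *Srebf2*, *Insig1*, *Insig2* and *Por*, from each further list without markers the 3 or fewer of smallest FDR per direction, and the 5 nearest profiles. Some genes of the lists are not reported here and are left out of the counts, medians and plots. Markers, overlapping or similar genes, *Ggps1*, *Vegfa* (chosen after its values were seen) and plot labels are exceptions. Alternatives were no filter, at least 10 counts in every library, DESeq2 size factors, library size only, the quasi-likelihood test of edgeR, alone and with the replicate block, DESeq2's Wald test, and each library left out in turn on the same genes.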

Additional observations from a re-analysis of the deposited data

How the results depend on the processing

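The numbers of late sterol enzymes called higher (5 of 9) and lower (0), and their median, kept within 1.5 times or 1 SD between replicates (0.245) under the other filters, normalizations and tests, with 4 or 5 called and medians from 0.93 to 0.98. Leaving out 1 library at a time, 2 to 8 members were called higher, 0 lower, and the median ranged from 0.67 to 1.29. *Sqle* and *Msmo1* were called under all 11 alternatives, *Nsdhl* under 10, *Dhcr7* under 9 and *Lss* under 8. *Cyp51*, *Hsd17b7* and *Sc5d* were called under 1, without control replicate 3, where *Ebp* reversed sign (left-out libraries gave −0.33 to 0.0097). In the quasi-likelihood test 0 of the electron donors were called, both without and with the replicate block, and with the block 2 of the uptake, transport and storage genes. Of the 10 hypoxia-responsive genes this test called 8 without the block and 7 with it, and DESeq2's Wald test called 8. With the block *Insig2* (FDR = 0.0572), *Nr1h2* (0.0609) and *Bcorl1* (0.0542) were not called. Left-out libraries gave 1 other late-step gene, 0 to 1 electron donors, 3 to 6 early mevalonate enzymes, 1 to 3 SREBP control genes, 1 to 4 uptake, transport and storage genes and 7 to 10 hypoxia-responsive genes. With the replicate block 5 members were called, and over all genes 477 were called higher and 308 lower, against 567 and 487 in the quasi-likelihood test without the block and 1012 and 810 in the exact test. Deviations of same-numbered libraries correlated with r = 0.0267 across genes, which are not independent replicates, so the numbers were not taken as pairs. The cause of these differences was not tested. Over all genes tested, fewer were called when control replicate 3 or either TRC library was left out. Without control replicate 1 more were called over all genes tested, while fewer of the late sterol enzymes were. *Cyp51*, *Hsd17b7* and *Sc5d* did not pass the FDR threshold in the exact test. Their DESeq2 95% intervals, unadjusted for the number of genes, ran from 1.12 to 2.25, 1.12 to 2.68 and 1.09 to 2.07 in fold. After adjustment they did not pass in DESeq2's Wald test either (FDR = 0.0535, 0.0679 and 0.0656).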
